A study of Mus musculus with 6 samples.

Results

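Autophagy genes build the double membrane that closes around cytoplasm or a mitochondrion and carries it to the lysosome. A kinase complex around Ulk1 starts the process, a lipid kinase complex around Becn1 and Pik3c3 marks the growing membrane, and conjugation enzymes attach the Atg8 family (the LC3 and GABARAP proteins) to it. Receptors tie the cargo to the Atg8 proteins, and tethering proteins and SNAREs then join the closed vesicle to the lysosome. In skeletal muscle, autophagy is active in fasting and exercise and clears damaged mitochondria from fibers. TFEB is a transcription factor known to bind genes of lysosomes and autophagy, and the comparison asks how the mRNA of these genes differed in muscle that lacks it.

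A list of 40 genes of autophagy and mitophagy was followed, and a gene was taken as measured when at least 1 probe set carried its symbol and no other. By this rule 34 of the 40 genes were measured, among 12393 genes on the array, with 67 probe sets in all. The values are those of the brightest probe set of a gene, by its mean over the 6 arrays, and the other probe sets are given where they differ. Among the others, Atg9a, Atg4a, Atg4c and Optn had no probe set of their own. Bnip3l was left out because its 3 probe sets also carry the name of a pseudogene, Bnip3l-ps.

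The WT group was 3 wild-type mice and the TFEB KO group 3 mice with a knockout of Tcfeb, the older name of Tfeb. All were C57BL/6, aged 1 month, and each array holds the muscle RNA of a separate mouse. The knockout was restricted to muscle by crossing floxed mice with a line that carries Cre under the promoter of the fast myosin light chain MLC1f, so cells of muscle tissue other than fibers keep the gene. The sources used here do not say which muscle was taken or whether the WT mice carried the floxed allele or Cre. The array measures the mRNA of a whole piece of tissue, and a lower value cannot tell fewer cells of a type from less RNA per cell.

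Tfeb itself was 2.99-fold lower in the knockout (limma adjusted p = 0.0079). Arrays of the same group correlated at 0.992 to 0.9967 (Pearson, over all probe sets) and arrays of different groups at 0.9889 to 0.9934. The tissue label was checked on 15 markers of muscle fibers, all with log2 values of at least 10.81 in every array, and 0 of them passed the test. Among them the slow myosin Myh7 differed most, by -1.40 on the log2 scale (limma adjusted p = 0.069). Their summed linear level was 278471 to 280392 in WT and 262594 to 275184 in TFEB KO arrays. The groups did not overlap in 7 of the 15 fiber markers, 1 higher and 6 lower in TFEB KO, 46.7% beside 23.8% of all genes. Besides Myh7, the lower ones included Myh2 and Actn2, with log2 fold changes of -0.57 and -0.39 (limma adjusted p = 0.098 and 0.11). Some markers of other cells passed the test. Of 14 macrophage markers, 5 rose, among them Mpeg1 and Cd163, and 0 fell, with a median log2 fold change of 1.00 and a summed linear level of 2066 to 3700 in WT and 5298 to 8773 in TFEB KO arrays. Of 11 endothelial markers, 5 fell, among them Vwf and Kdr, and 0 rose, with a median of -0.57 and a sum of 2894 to 3320 in WT and 1968 to 2247 in TFEB KO arrays. The lowest log2 value was 4.06 among the macrophage markers and 5.69 among the endothelial markers, and the lowest WT mean of any probe set was 2.66. Itgam, 1 of the 5 macrophage markers that rose, was dim, with a WT mean of 4.16. The autophagy genes are expressed in all of these cells, and the part of these shifts in their values was not tested.

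Of the 34 genes, 0 passed the test in TFEB KO muscle, 0 higher and 0 lower (limma, two-sided, Benjamini-Hochberg adjusted p under 0.05, no fold minimum). Over all 12393 genes, 1.57% passed, 0.871% higher and 0.702% lower. At an unadjusted p under 0.05, 3 of the 34 genes were reached, with Ulk1 higher and Gabarapl2 and Pink1 lower. That is 8.82% of the list, beside 17.1% of all genes (8.49% higher and 8.66% lower). The methods' t-test reached 3 of the 34 genes at an unadjusted p under 0.05, Atg4b, Atg4d and Gabarapl2, all lower. Over all 12393 genes it reached 1846, with 809 higher and 1037 lower. After adjustment it reached 0 of the 34, beside 0 of all 12393 genes and 1 of all 22626 probe sets. The smallest adjusted p from limma was 0.16, that of Gabarapl2.

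By brightest probe set, the differences were small as well as not called, and their spread was close to that over all genes. The log2 fold change (TFEB KO minus WT) ran from -0.35 to 0.44, with a median of -0.01 and quartiles of -0.12 and 0.05, and over all genes the median was -0.01 with quartiles of -0.13 and 0.11. Of the 34 genes, 15 lay above 0 and 19 below. The largest difference in either direction was 1.35-fold by brightest probe set and 1.8-fold over all 67 probe sets. For 29 of the 34 genes the 95% interval of the difference stayed inside a 1.5-fold change both ways, 85.3% beside 83.6% of all genes. It stayed inside a 2-fold change for 34 of 34, beside 12050 of all 12393 genes. These intervals are for the brightest probe set of each gene and are not adjusted over the list. Over all 67 probe sets, 56 stayed inside a 1.5-fold change, 83.6% beside 82% of all probe sets. Inside a 2-fold change there were 66 of the 67, beside 21920 of all 22626 probe sets. The 5 genes for which a change of 1.5-fold was not excluded by the interval of the brightest probe set were Ulk1, Becn1, Gabarapl1, Gabarapl2 and Pink1.

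**Figure D1:**
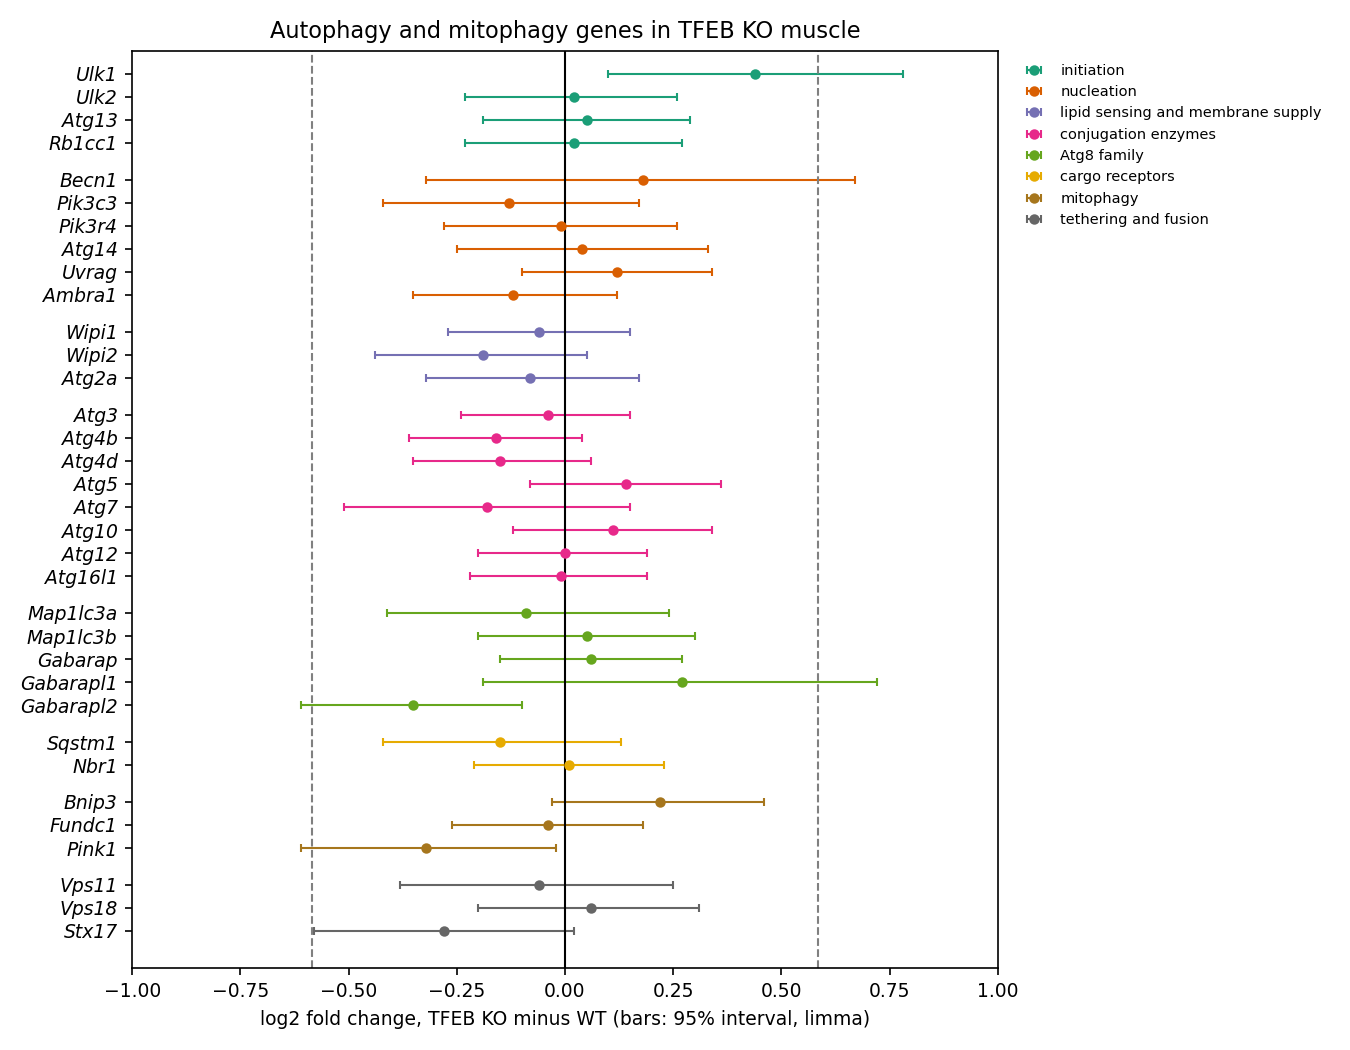
Log2 fold change (TFEB KO minus WT) of the 34 measured genes, ordered by the step they act in, with the 95% interval from limma as a bar. Points lie on both sides of 0 in most steps, dashed lines mark a 1.5-fold change, and the intervals of Ulk1, Becn1, Gabarapl1, Gabarapl2 and Pink1 cross one of them.

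The initiation complex had 4 measured genes with a median log2 fold change of 0.04. Ulk1, the kinase that starts autophagosome formation, had log2 values of 8.96, 9.11 and 9.29 in WT and 9.28, 9.81 and 9.59 in TFEB KO. The groups overlapped, since TFEB KO 1 lay just below WT 3, while the other two TFEB KO arrays lay above every WT array. The group means were 9.12 ± 0.17 and 9.56 ± 0.26 (SD, n = 3 mice each), and the log2 fold change was 0.44 (SE 0.15, 95% interval 0.10 to 0.78, limma adjusted p = 0.19). The second, dimmer probe set of Ulk1 gave 7.22, 7.16 and 7.23 in WT and 6.99, 7.55 and 7.01 in TFEB KO on the log2 scale, a log2 fold change of -0.02, so the higher value was read by only 1 of the 2 probe sets. Atg13, an adaptor of the Ulk1 complex, had log2 values of 8.06, 8.12 and 7.98 in WT and 7.94, 8.22 and 8.15 in TFEB KO, a log2 fold change of 0.05 (95% interval -0.19 to 0.29). Rb1cc1 (FIP200), the scaffold of the complex, had log2 values of 9.72, 9.76 and 9.90 in WT and 9.64, 9.93 and 9.88 in TFEB KO, a log2 fold change of 0.02 (95% interval -0.23 to 0.27). In both genes the WT and TFEB KO arrays were interleaved. A dimmer probe set of Rb1cc1 was scattered, at 6.76, 7.05 and 7.61 in WT and 7.53, 7.15 and 9.29 in TFEB KO on the log2 scale, with a single high array. Ulk2, the close relative of Ulk1, had a log2 fold change of 0.02.

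Nucleation is carried by the class III lipid kinase Pik3c3 (Vps34) and its partners, and the 6 measured genes had a median log2 fold change of 0.02. Pik3c3 had log2 values of 7.49, 7.56 and 7.80 in WT and 7.30, 7.49 and 7.69 in TFEB KO, a log2 fold change of -0.13 (95% interval -0.42 to 0.17). Uvrag, a Becn1 partner of the endosomal form of the complex, had log2 values of 7.60, 7.60 and 7.80 in WT and 7.71, 7.84 and 7.81 in TFEB KO, a log2 fold change of 0.12 (95% interval -0.10 to 0.34). Ambra1, a regulator of Becn1 and Ulk1, had log2 values of 7.60, 7.73 and 7.85 in WT and 7.67, 7.50 and 7.66 in TFEB KO, a log2 fold change of -0.12 (95% interval -0.35 to 0.12). The groups overlapped in all 3. Pik3r4 (Vps15), which anchors the kinase, and Atg14, which brings it to the site of autophagosome formation, differed by -0.01 and 0.04 on the log2 scale.

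Becn1, the core subunit that binds either Atg14 or Uvrag, showed how far the answer depended on the probe set (it was chosen for this after its values were seen). Its brightest probe set had log2 values of 9.33, 9.23 and 10.02 in WT and 9.68, 9.46 and 9.97 in TFEB KO, a log2 fold change of 0.18 (95% interval -0.32 to 0.67), with a wide spread in both groups. The next probe set, nearly as bright, had log2 values of 9.79, 9.69 and 9.79 in WT and 9.39, 9.54 and 9.44 in TFEB KO. There the groups did not overlap and the log2 fold change was -0.29 (95% interval -0.50 to -0.09, limma adjusted p = 0.15), the opposite sign. The remaining probe sets of the gene gave 0.04 and 0.11.

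The lipid that Pik3c3 makes is read by Wipi1 and Wipi2, and Atg2a passes lipids into the growing membrane. All 3 lay below 0, with a median log2 fold change of -0.08. Wipi2, which brings the conjugation complex to the membrane, had log2 values of 7.92, 8.26 and 7.98 in WT and 7.87, 7.89 and 7.83 in TFEB KO. All TFEB KO arrays lay below all WT arrays, by a narrow gap, with means of 8.06 ± 0.18 and 7.86 ± 0.03 (SD, n = 3 mice each) and a log2 fold change of -0.19 (95% interval -0.44 to 0.05, limma adjusted p = 0.42). Wipi1 had log2 values of 10.03, 9.95 and 9.87 in WT and 9.96, 9.87 and 9.84 in TFEB KO, a log2 fold change of -0.06 (95% interval -0.27 to 0.15). Its dimmer probe sets went from -0.21 to 0.52 in log2 fold change. Atg2a had log2 values of 7.03, 7.13 and 7.25 in WT and 6.92, 7.09 and 7.17 in TFEB KO, a log2 fold change of -0.08 (95% interval -0.32 to 0.17), and its groups overlapped.

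The conjugation enzymes were 8 measured genes with a median log2 fold change of -0.03. Both measured Atg4 proteases, which trim the Atg8 proteins and release them from membranes, had lower means in TFEB KO. Atg4b had log2 values of 7.48, 7.52 and 7.49 in WT and 7.42, 7.32 and 7.26 in TFEB KO, with means of 7.50 ± 0.02 and 7.33 ± 0.08 (SD, n = 3 mice each) and a log2 fold change of -0.16 (95% interval -0.36 to 0.04, limma adjusted p = 0.4). Atg4d had log2 values of 9.16, 9.18 and 9.26 in WT and 8.98, 9.07 and 9.11 in TFEB KO, with means of 9.20 ± 0.05 and 9.05 ± 0.07 (SD, n = 3 mice each) and a log2 fold change of -0.15 (95% interval -0.35 to 0.06, limma adjusted p = 0.45). In both genes every TFEB KO array lay below every WT array, and neither passed the test. Atg5, the part of the conjugate with Atg12 that directs the Atg8 proteins to the membrane, had log2 values of 7.79, 7.89 and 7.95 in WT and 8.10, 8.05 and 7.90 in TFEB KO, a log2 fold change of 0.14 (95% interval -0.08 to 0.36). WT 3 lay above TFEB KO 3, so its groups overlapped, and its dimmer probe sets gave 0.28 and -0.03. The other 5 were Atg7, the activating enzyme of both conjugation systems, Atg3 and Atg10, the conjugating enzymes, and Atg12 and Atg16l1, with log2 fold changes from -0.18 (Atg7) to 0.11 (Atg10).

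The Atg8 family, whose members coat the autophagosome and hold its cargo, had 5 measured genes with a median log2 fold change of 0.05, and it held differences in both directions. Gabarapl2 (GATE-16) had log2 values of 11.23, 10.98 and 10.94 in WT and 10.59, 10.81 and 10.68 in TFEB KO. Every TFEB KO array lay below every WT array (p = 0.10 in a two-sided exact permutation test, which cannot go lower with 3 arrays in each group). The means were 11.05 ± 0.16 and 10.69 ± 0.11 (SD, n = 3 mice each), 1.28-fold lower in TFEB KO, a log2 fold change of -0.35 (SE 0.11, 95% interval -0.61 to -0.10, limma adjusted p = 0.16). Gabarapl1, a FoxO target in muscle, had log2 values of 9.65, 9.67 and 9.59 in WT and 9.40, 10.26 and 10.05 in TFEB KO. The WT arrays were close together, and TFEB KO 1 lay below all of them while the other two TFEB KO arrays lay above, so that the means were 9.64 ± 0.04 and 9.90 ± 0.45 (SD, n = 3 mice each) and the log2 fold change 0.27 (SE 0.20, 95% interval -0.19 to 0.72, limma adjusted p = 0.55). Without TFEB KO 1 it was 0.52 (limma adjusted p = 0.059). A dimmer probe set of Gabarapl1 also had TFEB KO 1 below and the other two TFEB KO arrays above all WT arrays, with log2 values of 8.62, 8.57 and 8.81 in WT and 8.38, 9.20 and 9.50 in TFEB KO. Gabarap had log2 values of 11.13, 11.14 and 11.31 in WT and 11.25, 11.28 and 11.24 in TFEB KO, a log2 fold change of 0.06 (95% interval -0.15 to 0.27), with overlapping groups. Map1lc3b (LC3B) and Map1lc3a differed by 0.05 and -0.09 on the log2 scale.

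Both measured cargo receptors bind ubiquitin and the Atg8 proteins. Sqstm1 (p62) had log2 values of 12.44, 12.39 and 12.21 in WT and 12.01, 12.38 and 12.22 in TFEB KO, a log2 fold change of -0.15 (95% interval -0.42 to 0.13). Nbr1 had log2 values of 10.34, 10.34 and 10.32 in WT and 10.20, 10.37 and 10.47 in TFEB KO, a log2 fold change of 0.01 (95% interval -0.21 to 0.23). The groups overlapped in both. A dimmer probe set of Nbr1 read otherwise, with log2 values of 8.17, 8.05 and 8.05 in WT and 7.64, 7.77 and 7.61 in TFEB KO, a log2 fold change of -0.41 (SE 0.09, 95% interval -0.62 to -0.20, limma adjusted p = 0.071). The groups did not overlap, and this was the smallest adjusted p among the 67 probe sets.

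Of the mitophagy genes, Bnip3 and Fundc1 are receptors in the outer mitochondrial membrane, and Pink1 is the kinase that gathers on damaged mitochondria. Pink1 had log2 values of 12.33, 12.20 and 12.52 in WT and 11.84, 12.07 and 12.20 in TFEB KO. The groups met at 12.20, where WT 2 and TFEB KO 3 lay together. Its means were 12.35 ± 0.16 and 12.04 ± 0.18 (SD, n = 3 mice each), 1.24-fold lower in TFEB KO, a log2 fold change of -0.32 (SE 0.13, 95% interval -0.61 to -0.02, limma adjusted p = 0.25). Bnip3 differed with the other sign, with log2 values of 12.57, 12.45 and 12.44 in WT and 12.53, 12.77 and 12.82 in TFEB KO. TFEB KO 1 lay among the WT arrays, and the means were 12.49 ± 0.07 and 12.70 ± 0.15 (SD, n = 3 mice each), and the log2 fold change was 0.22 (SE 0.11, 95% interval -0.03 to 0.46, limma adjusted p = 0.35). Fundc1 had log2 values of 9.66, 9.58 and 9.64 in WT and 9.71, 9.56 and 9.48 in TFEB KO, a log2 fold change of -0.04 (95% interval -0.26 to 0.18), and its groups overlapped.

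The last step had 3 measured genes. Stx17, the SNARE of closed autophagosomes, had log2 values of 8.49, 8.64 and 8.87 in WT and 8.19, 8.52 and 8.45 in TFEB KO. TFEB KO 2 lay between WT 1 and WT 2, and the other TFEB KO arrays lay below all WT arrays. The means were 8.67 ± 0.19 and 8.39 ± 0.18 (SD, n = 3 mice each), and the log2 fold change was -0.28 (SE 0.13, 95% interval -0.58 to 0.02, limma adjusted p = 0.33). All its dimmer probe sets were below 0 too, at -0.36, -0.21 and -0.10. The first of these had log2 values of 8.00, 7.83 and 8.08 in WT and 7.68, 7.67 and 7.48 in TFEB KO, with no overlap (limma adjusted p = 0.13). Vps11 and Vps18 are core subunits of the HOPS complex that tethers the vesicle to the lysosome. Vps11 had log2 values of 7.65, 8.00 and 7.90 in WT and 7.54, 7.86 and 7.95 in TFEB KO, a log2 fold change of -0.06. Vps18 had log2 values of 6.58, 6.53 and 6.48 in WT and 6.45, 6.79 and 6.52 in TFEB KO, a log2 fold change of 0.06, and the groups overlapped in both genes.

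**Figure D2:**
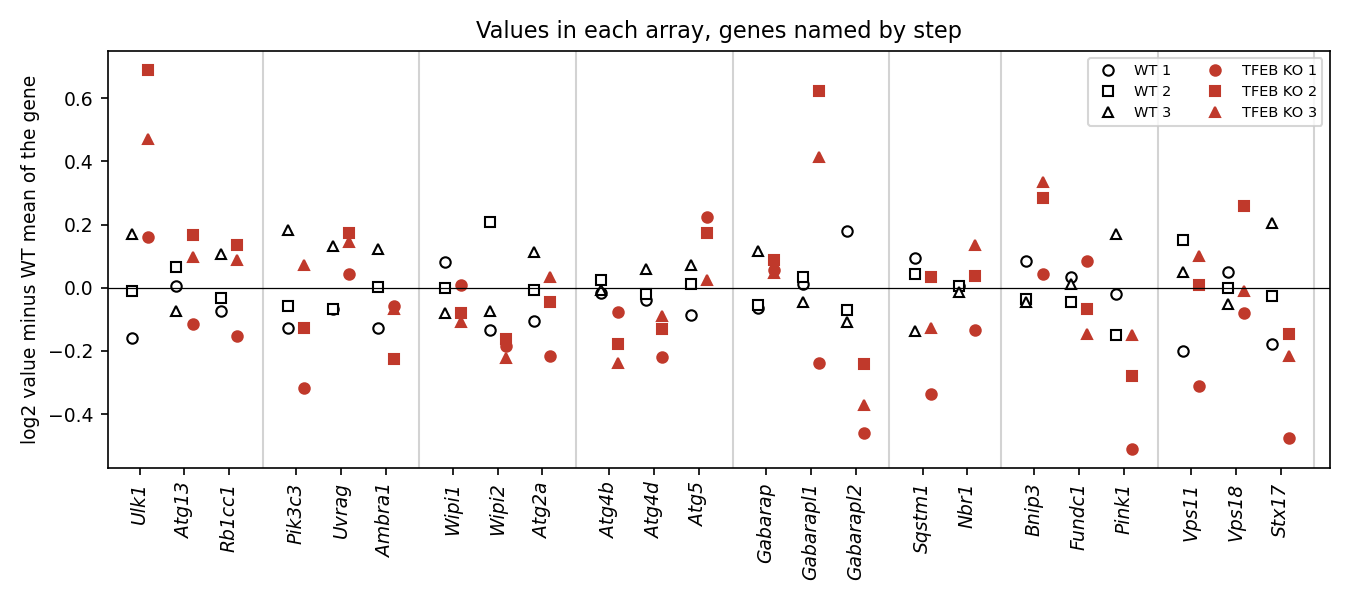
Log2 value of each array minus the WT mean of the gene, for the 23 genes given with their array values, in the order of the steps. Open symbols are the WT arrays and red symbols the TFEB KO arrays, with a shape for each replicate number. TFEB KO 1 (red circle) lies lowest of its group in Ulk1, Gabarapl1, Gabarapl2, Bnip3 and Pink1, and the TFEB KO points lie below all WT points in Wipi2, Atg4b, Atg4d and Gabarapl2.

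In 4 of the 34 genes the groups did not overlap, Wipi2, Atg4b, Atg4d and Gabarapl2, and in all 4 the TFEB KO arrays were lower. That is 11.8% of the list, beside 23.8% of all genes in either direction and 12.9% with the TFEB KO arrays lower. The arrays of a group were not alike. TFEB KO 1 was the lowest TFEB KO array in 21 of the 34 genes, while it was the lowest in 35.7% of all genes. The median of the 34 genes, each taken against its WT mean, was -0.08 in TFEB KO 1, 0.01 in TFEB KO 2 and 0.03 in TFEB KO 3 on the log2 scale, and -0.03, -0.01 and 0.05 in the WT arrays. TFEB KO 1 was also the array with the most macrophage marker signal, a summed linear level of 8773 against 5542 and 5298 in the other two, and the part of this in the values was not tested. Without TFEB KO 1, 4 genes had an unadjusted p under 0.05 (Ulk1, Gabarapl1 and Bnip3 higher, Gabarapl2 lower), 11.8% beside 17.1% of all genes, and 0 passed after adjustment. Without WT 1 only Stx17 had an unadjusted p under 0.05, lower, 2.94% beside 11.6%. Without TFEB KO 2 Gabarapl2 and Stx17 did, both lower, 5.88% beside 16.2%. Without WT 2 and without TFEB KO 3 they were Ulk1, Gabarapl2 and Pink1, as with all arrays, 8.82% beside 13.6% and 13.5%. Without WT 3 they were Ulk1 and Becn1, higher, and Gabarapl2, lower, 8.82% beside 15.6%.

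Probe sets of a gene did not always share a sign, though several of these differences lay close to 0, such as -0.12 to 0.12 for Atg12 and -0.07 to 0.11 for Ulk2. How often this occurs among other genes was not counted. Of the 34 genes, 15 had a single probe set and 19 had more, and in 10 of these 19 the probe sets lay on both sides of 0. They were Ulk1, Ulk2, Becn1, Wipi1, Atg5, Atg7, Atg12, Map1lc3b, Nbr1 and Vps18. Over all 67 probe sets, 0 passed the test, beside 1.6% of all probe sets. At an unadjusted p under 0.05 there were 10, 4 higher and 6 lower, 14.9% of the 67 beside 17.2% of all probe sets (7.81% higher and 9.4% lower). The groups did not overlap in 15, 4 higher and 11 lower, 22.4% beside 23% of all probe sets (9.77% higher and 13.3% lower). For Map1lc3b, the gene of the most used autophagosome marker, a dimmer probe set had log2 values of 11.06, 10.90 and 11.12 in WT and 10.64, 10.82 and 10.87 in TFEB KO, a log2 fold change of -0.25 (limma adjusted p = 0.27), while its brightest gave 0.05.

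**Figure D3:**
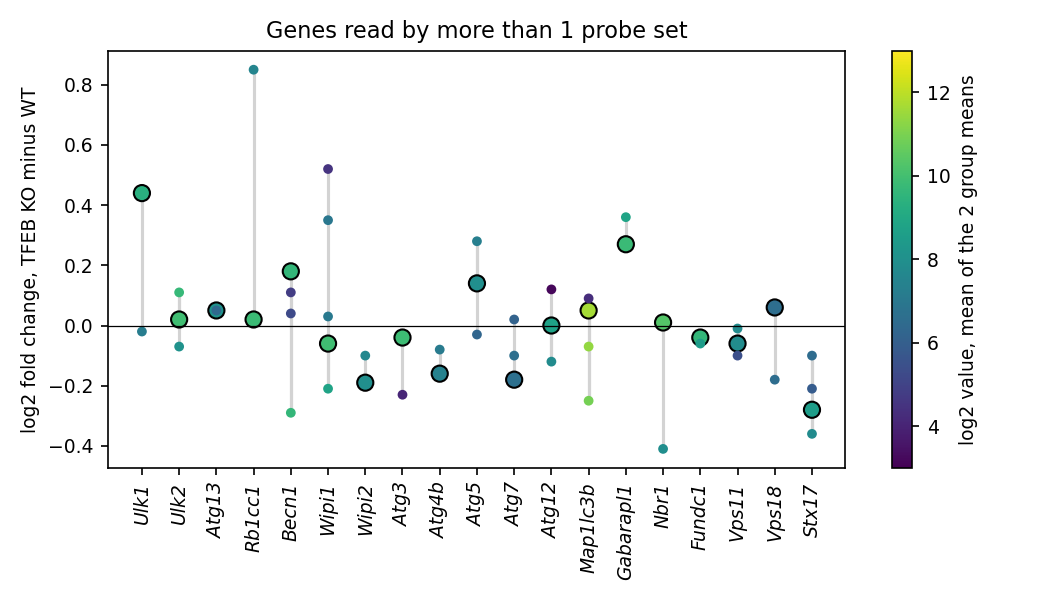
Log2 fold change (TFEB KO minus WT) of each probe set for the 19 genes read by more than 1, with the probe sets of a gene joined by a grey line. The large outlined point is the brightest probe set and the color is its mean log2 value. The points of 10 genes lie on both sides of 0, and the widest gap is between the probe sets of Rb1cc1, at 0.02 and 0.85.

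TFEB binds an E-box within a longer palindrome, the CLEAR element, and the promoters were read for it. RefSeq (GRCm38.p6) gave a promoter window, from 250 bases before to 50 bases after the transcription start, for 31 of the 40 genes, in 34 windows. The letters CACGTG, the same on both strands, were in 5 of the 34 windows, those of Atg3, Atg14, Atg5, Atg7 and Bnip3. Over all genes they were in 2349 of 32851 windows (7.15%). The shares were not compared by a test. The longer TCACGTG, searched on both strands and always overlapping the former, was in 3 of the 34 windows, those of Atg3, Atg14 and Atg7. Over all genes it was in 1237 of 32851 windows (3.77%). The full palindrome of the CLEAR element, the latter with further bases on both sides, was in 0 of the windows, beside 0.326%. The windows that hold CACGTG are shown 5′ to 3′ on the strand of the gene, with these letters in capitals, so that the measured values can be set beside them. They are chr16:45158579-45158878 on the + strand for Atg3, chr14:47568385-47568684 on the - strand for Atg14, chr10:44268089-44268388 on the + strand for Atg5, chr6:114670846-114671145 on the + strand for Atg7 and chr7:138909457-138909756 on the - strand for Bnip3.
Atg3: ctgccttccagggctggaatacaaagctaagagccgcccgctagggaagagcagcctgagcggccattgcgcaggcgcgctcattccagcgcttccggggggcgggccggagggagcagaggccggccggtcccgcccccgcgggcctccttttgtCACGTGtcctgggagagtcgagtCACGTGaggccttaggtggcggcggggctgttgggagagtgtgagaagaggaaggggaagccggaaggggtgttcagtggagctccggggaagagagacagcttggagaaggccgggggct
Atg14: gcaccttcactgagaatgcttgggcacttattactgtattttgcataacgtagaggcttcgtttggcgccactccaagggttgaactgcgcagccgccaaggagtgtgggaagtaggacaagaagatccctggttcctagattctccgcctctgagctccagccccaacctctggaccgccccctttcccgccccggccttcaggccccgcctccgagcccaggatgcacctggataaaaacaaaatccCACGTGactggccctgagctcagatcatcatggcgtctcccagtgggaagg
Atg5: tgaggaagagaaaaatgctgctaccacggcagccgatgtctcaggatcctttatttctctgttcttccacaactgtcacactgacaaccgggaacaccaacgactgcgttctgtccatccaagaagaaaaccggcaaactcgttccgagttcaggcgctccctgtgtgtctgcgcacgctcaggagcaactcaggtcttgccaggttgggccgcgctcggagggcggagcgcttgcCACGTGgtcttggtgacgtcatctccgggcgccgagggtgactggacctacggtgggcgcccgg
Atg7: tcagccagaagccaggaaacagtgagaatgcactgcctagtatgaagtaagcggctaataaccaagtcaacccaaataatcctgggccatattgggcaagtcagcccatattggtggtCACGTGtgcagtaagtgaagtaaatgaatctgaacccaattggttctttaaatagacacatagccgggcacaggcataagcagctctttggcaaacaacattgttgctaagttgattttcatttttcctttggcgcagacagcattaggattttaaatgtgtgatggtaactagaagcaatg
Bnip3: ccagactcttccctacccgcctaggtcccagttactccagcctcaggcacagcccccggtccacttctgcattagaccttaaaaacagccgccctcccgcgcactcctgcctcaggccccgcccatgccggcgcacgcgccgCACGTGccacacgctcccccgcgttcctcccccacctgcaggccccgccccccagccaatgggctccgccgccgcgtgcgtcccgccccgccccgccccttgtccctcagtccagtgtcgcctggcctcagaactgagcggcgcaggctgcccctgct
The capitals begin 94 and 71 bases before the start in Atg3, 1 base before it in Atg14, 14 in Atg5, 132 in Atg7 and 108 in Bnip3. The window of Atg7 belongs to a start that lies 27969 bases inside the gene. The genes behind these promoters differed by -0.04 (Atg3), 0.04 (Atg14), 0.14 (Atg5), -0.18 (Atg7) and 0.22 (Bnip3) on the log2 scale, and 0 passed the test. Their median log2 fold change was 0.04, and that of the 22 measured genes with a window without CACGTG was -0.02, with a range from -0.35 to 0.44. A match of letters is a description of the window and not a site of binding, and a window without them says nothing of the rest of the gene.

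Further genes of the same pathway were taken from a separate list of 39, of which 31 had a probe set of their own. Of these, 0 passed the test, and at an unadjusted p under 0.05 there were 4 higher and 1 lower, 16.1% beside 17.1% of all genes. The groups did not overlap in 6, 5 higher and 1 lower, 19.4% beside 23.8%. By brightest probe set the log2 fold changes ran from -0.32 to 0.62, with 15 above 0 and 16 below. Over all 59 probe sets of these genes the directions were even, and 0 passed the test. At an unadjusted p under 0.05 there were 5 higher and 5 lower, 16.9% beside 17.2% of all probe sets. The groups did not overlap in 14, 7 higher and 7 lower, 23.7% beside 23%. The lowest log2 fold change was -0.57, in a dimmer probe set of Tollip (limma adjusted p = 0.055). Trp53inp1, a p53 target that binds LC3, stood at the upper end with log2 values of 8.17, 8.10 and 8.12 in WT and 8.55, 8.67 and 9.03 in TFEB KO. The groups were well apart, with means of 8.13 ± 0.04 and 8.75 ± 0.25 (SD, n = 3 mice each), 1.54-fold higher, a log2 fold change of 0.62 (SE 0.13, 95% interval 0.32 to 0.91, limma adjusted p = 0.059). It missed the threshold, and passed it under 5 of the 15 other settings (log2 fold change 0.47 to 0.72, limma adjusted p = 0.039 to 0.045). Its dimmer probe set gave 0.32 (limma adjusted p = 0.36).

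Wdr45b (WIPI3), a relative of the Wipi genes, had log2 values of 9.34, 9.28 and 9.24 in WT and 9.55, 9.56 and 9.55 in TFEB KO, a log2 fold change of 0.27 (limma adjusted p = 0.16). Nrbf2, a subunit of the Atg14 form of the lipid kinase, had log2 values of 9.11, 9.25 and 9.05 in WT and 9.38, 9.39 and 9.51 in TFEB KO, a log2 fold change of 0.29 (limma adjusted p = 0.18). In both, every TFEB KO array was above every WT array, and neither passed the test. Tbk1, a kinase of cargo receptors, differed by more, 0.42 on the log2 scale (limma adjusted p = 0.18), with overlapping groups. Its dimmer probe set gave 0.30 (limma adjusted p = 0.36). At the lower end, Tecpr1, a tether of autophagosomes to lysosomes, had log2 values of 8.05, 8.05 and 7.81 in WT and 7.49, 7.82 and 7.63 in TFEB KO, a log2 fold change of -0.32 (limma adjusted p = 0.22), with WT 3 just below TFEB KO 2. The mitochondrial receptors Bcl2l13 and Phb2 differed by -0.21 and -0.18 on the log2 scale (limma adjusted p = 0.42 and 0.45).

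**Figure D4:**
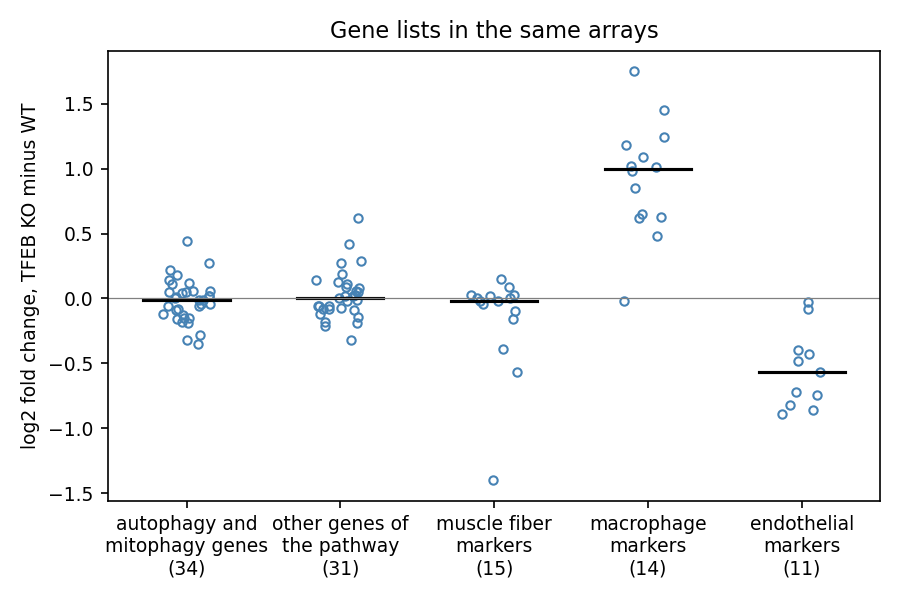
Log2 fold change (TFEB KO minus WT) of the 34 autophagy and mitophagy genes, of 31 further genes of the pathway and of markers of muscle fibers (15), macrophages (14) and endothelial cells (11). Each circle is a gene by its brightest probe set and each line the median of the list. The medians of the autophagy genes and of the fiber markers lie at -0.01 and -0.02, that of the macrophage markers at 1.00 and that of the endothelial markers at -0.57.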

How the data were processed

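The authors made the deposited log2 values, 1 for each probe set and array, from scanned Affymetrix arrays with RMA, named with the package affy in the submitters' processing notes (versions not given in the sources used here). RMA corrects background, normalizes between arrays and summarises probes, which largely removes any change common to most genes. The arrays give no depth, and their number limits the precision.

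Of the probe sets, 64 controls were left out and 22626 tested. The platform annotation gave 1 symbol for 20380, several for 691 and none for 1555. Groups were compared with limma 3.58.1 (lmFit, eBayes; R 4.3.3) in two-sided tests, and p-values were adjusted over all tested probe sets by the method of Benjamini and Hochberg. The study's methods name Student's t-test but not for the arrays, so it was an alternative. Python 3.11.15, pandas 2.3.3, NumPy 2.4.6, SciPy 1.17.1 and matplotlib 3.10.9 handled tables, permutations and plots. Array values were given for the 3 genes with the smallest unadjusted p in each step (23 genes), and of the further pathway genes for the 3 with the smallest p in each direction, with array values for most. Array values of Becn1 and of dimmer probe sets, and the names Tbk1 and Tollip, were chosen after their values were seen. Of the listed genes, 1 is not reported here. The genes and lists were chosen with earlier results of these data known.

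On simulated data of this size (5 runs of 22626 probe sets) limma recovered 13.7% of changes of 0.5, 84.2% of changes of 1 and 99.7% of changes of 2 on the log2 scale, and 5.5% of its calls were false. The simulation had independent noise and few changed probe sets, 335, 335 and 330 of these sizes over the 5 runs. The share recovered depends on how many probe sets change, which is not known for the data. The alternatives were to leave out each array in turn, to average the probe sets of each gene, to require a change of 1.5-fold, to run the methods' t-test, to block on the replicate number, to weight the arrays, to use trended and robust moderation, to drop probe sets with a mean under the 25th percentile, to align the arrays at the 75th percentile and to repeat quantile normalization.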

Additional observations from a re-analysis of the deposited data

How the results depend on the processing

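Of the 34 genes, 0 passed the test under each of the 15 other settings, and their median log2 fold change stayed between -0.05 and 0.01. The smallest adjusted p of a gene given with its array values was 0.059, that of Gabarapl1 without TFEB KO 1 (limma). Of the 23 genes given with their array values, the sign turned in 7 whose differences lay close to 0. With a second quantile normalization Rb1cc1 was at -0.02 and Nbr1 at -0.03, and with probe sets averaged per gene Wipi1 was at 0.13, Nbr1 at -0.20 and Vps18 at -0.06. That averaging also moved Ulk1 from 0.44 to 0.21 (limma adjusted p = 0.48) and Rb1cc1 from 0.02 to 0.44. With each array left out, the log2 fold change ran from -0.03 to 0.11 for Rb1cc1, -0.16 to 0.06 for Vps11, -0.01 to 0.14 for Atg13, -0.05 to 0.12 for Vps18, -0.05 to 0.08 for Nbr1 and -0.10 to 0.01 for Fundc1. Of the further pathway genes, 1 passed with a second quantile normalization, with trended and robust moderation, with array weights and with averaged probe sets, Trp53inp1 each time (limma adjusted p = 0.045, 0.044, 0.039 and 0.044), and 0 to 2 with an array left out. The 2 were Trp53inp1 and Tbk1, without TFEB KO 1 (limma adjusted p = 0.041 and 0.049). The cause was not tested. Over all probe sets, 361 passed, 1 by the methods' t-test after adjustment, and 21 (without WT 1) to 438 (without TFEB KO 1) with an array left out, with 60 without WT 2, 80 without WT 3, 44 without TFEB KO 2 and 93 without TFEB KO 3, from fewer arrays in each case. The replicate numbers are not stated to pair mice, and deviations of same-numbered arrays correlated at 0.09, 0.05 and 0.27, with WT 1 closest to TFEB KO 2 (0.17). With the replicate number as a block, 297 probe sets passed, 0 of the 34 genes and 0 of the further genes. In the simulation, changes of 0.5 on the log2 scale were mostly missed by a test of this size. The intervals and not the absence of calls therefore give the size of change that these arrays leave possible.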
